A study of Mus musculus with 3 samples.

Results

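Of 43730 immune cells sorted from mouse melanoma grafts, 83 were gated as gamma-delta T cells of the interleukin-17 kind, selected on measured counts of 15 genes. A cell was a member when its raw counts held at least 2 of Cd3d, Cd3e and Cd3g together, at least 2 of Cd163l1, Il17a and Il23r together, and at least 1 of Trdc, Trgc1 and Trgc2 together. It also held at most 1 of Cd8a and Cd8b1 together, no Foxp3, and fewer than 10 of C1qa, C1qb and C1qc together. The gate found 33 of 14393 cells at 4 months, 20 of 14653 at 12 months and 30 of 14684 at 20 months.

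The cells came from mice aged 4, 12 and 20 months, 7 per age. Each mouse had received 500000 cells of YUMM1.7, a transplantable mouse melanoma line, under the skin, and tumours were collected at day 18. All groups thus carried the same graft and differed by age. Strain, sex and whether the 7 mice were pooled are not given in the sources used here. DAPI-negative cells bound by an antibody to CD45.2, a surface protein of leukocytes, were sorted, and each age gave 1 library from a PIP-seq v4.0 Plus kit, which reads the 3′ ends of transcripts.

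Gamma-delta T cells carry a receptor built from the gamma and delta chains in place of the alpha and beta chains of conventional T cells. One branch is committed in the thymus to secrete interleukin-17A, and it answers interleukin-23 and interleukin-1 directly. Such cells settle in skin and other barrier tissues before birth, and those of skin and mucosa often bear the V gamma 6 chain. They are known in tumours for recruiting myeloid cells.

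The libraries totalled 110371225, 127850782 and 119873564 counts at 4, 12 and 20 months. Median counts in a gated cell were 4492, 5677.5 and 5128.5, with a range over all 83 cells of 3740 to 19028, below the medians of 6789, 7411 and 6936 over all cells of each library. The libraries shared 9 cell barcodes, and none of these was a gated cell. None of the 83 cells was among the 6% of each library with the highest doublet score from Scrublet. With 1 library per age there is no test between ages. The spread in every test between cell classes is that among these 3 libraries, which the labels do not tie to separate mice.

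The gate genes were read first, as a description, since they chose the cells. Cd163l1, which encodes the scavenger receptor SCART1 of gamma-delta T cells, lies at chr7:140218267-140231145 on the plus strand of GRCm38 and was found in 68 cells (22, 16 and 30 by age). Il17a (chr1:20730905-20734496, plus strand), the cytokine of the name, was found in 32 cells (10, 8 and 14). Il23r (chr6:67422932-67491855, minus strand), which encodes the receptor chain specific to interleukin-23, was found in 50 cells (21, 13 and 16). All 3 genes were present in 17 cells, Cd163l1 was the only one in 19, Il23r in 11 and Il17a in 3. Cells without an Il17a count were thus the majority of a class named after it.

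CPM here means a gene's share of the summed counts of a class in 1 library, on the usual scale. In the gated cells Il17a stood at 646 CPM with a 95% interval of 536 to 771 in the 4-month library, 285 (196 to 400) in the 12-month library and 462 (363 to 579) in the 20-month library. These are exact Poisson intervals and, like all intervals here, cover counting error only. All other T cells held 2.02, 3.06 and 5.95 CPM at the 3 ages. Cells with Ncr1 and no Cd3 counts, an NK-like class of 966 cells, held 0.23, 1.29 and 0. Cells with at least 10 C1q counts and no Cd3 counts, 526 macrophage-like cells, held 0, 0 and 1.67. Il17a was uneven among the gated cells, with a median of 0 and a maximum of 34 counts in 1 cell, where Cd163l1 had a median of 8 and a maximum of 22. Of the sister cytokine genes, Il17f gave 5.29, 25.9 and 12.3 CPM from 1, 2 and 1 cells, and Il22 gave 1 count in 1 cell.

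Blk and Actn2 are markers of the label that the gate did not read. They were chosen with earlier results of these data known, so their presence is a description and not a check of the label. Blk, a Src-family kinase of B cells and of this T cell branch, had a count in 62 of the 83 cells, against at most 0.613% of NK-like and 1.14% of macrophage-like cells in any library. Actn2, an actin crosslinker known from muscle and found in this branch, had a count in 71 cells, against at most 2.07% and 1.72%. Median depth was 6138, 6050.5 and 5857 counts in NK-like cells and 6683, 6435.5 and 6341 in macrophage-like cells, so the gated cells held these genes at a lower depth. The markers of the label were present.

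The T cell receptor divided the gated cells. Trdc, the constant gene of the delta chain (chr14:54142851-54148868, plus strand), had 2 or more counts in 69 cells (23, 16 and 30 by age) with a maximum of 79, 1 count in 2 cells and none in 12. The 14 cells with 0 or 1 count were 10 of the 33 at 4 months, 4 of the 20 at 12 months and 0 of the 30 at 20 months. None of them had a Cd163l1 count, which 68 of the other 69 had. They entered the gate through Il23r in 12 cells and Il17a in 3, with Trgc1 in all 14. Trdc in NK-like cells, which have no T cell receptor, was found in 24%, 28.3% and 25.9% of cells by age at 51.0 to 65.8 CPM, against 2302, 4107 and 3908 CPM in the gated cells.

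**Figure D1:**
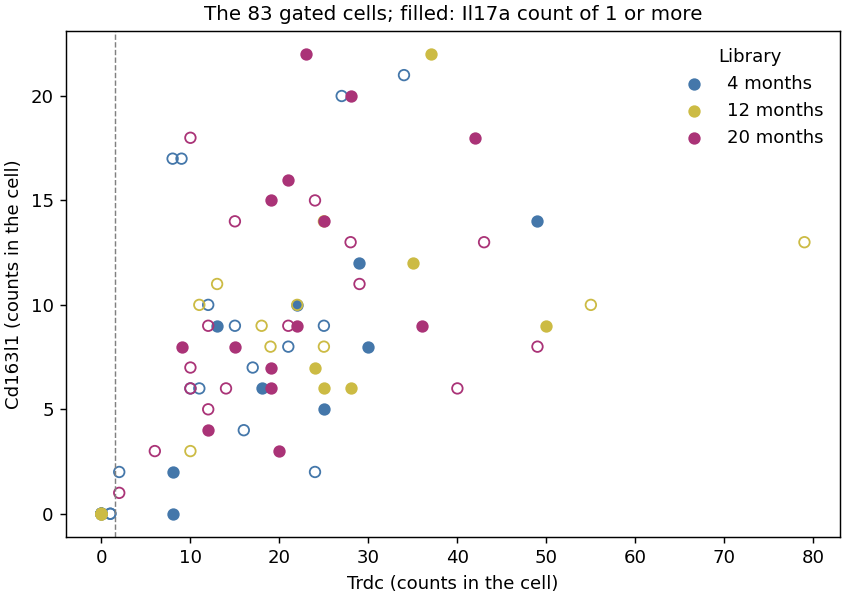
Each point is 1 of the 83 gated cells, with its Trdc count on the horizontal and its Cd163l1 count on the vertical axis, coloured by library and filled where it held at least 1 Il17a count. The 14 cells left of the dashed line, which lies between 1 and 2 Trdc counts, are all at 0 for Cd163l1, and none of them is from 20 months.

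This division was drawn after the values were seen, so its contrasts are given with counting intervals and no test. Trac, the constant gene of the alpha chain, stood at 871 CPM (689 to 1090) in the 14 Trdc-low cells and 212 (168 to 264) in the other 69. Trbc2, a beta-chain constant gene, stood at 1797 and 876 CPM. Trgc1 went the other way, at 750 and 1819 CPM, as did Blk, at 132 (68.3 to 231) and 374 (315 to 442). The intervals of Trac and Blk did not overlap between these 2 sets of cells. Icos, a costimulatory receptor, was at 650 CPM (495 to 839) in the Trdc-low cells and 231 (185 to 285) in the rest, and Ccr6, a chemokine receptor of type 17 cells, at 99.2 (45.4 to 188) and 29.2 (14.6 to 52.3).

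Other genes of the type 17 state went both ways. Il17a and S100a4, a calcium-binding protein gene, were lower in the Trdc-low than in the Trdc-bearing cells, with intervals that did not overlap. Il17a stood at 154 CPM (84.4 to 259) and 574 (500 to 655), and S100a4 at 1433 (1197 to 1701) and 1944 (1805 to 2090). Il17a was read by the gate, so its contrast is not free of the selection. Its counts lay in 3 of the 14 Trdc-low and 29 of the 69 Trdc-bearing cells, a spread between cells that the intervals do not cover. Actn2 stood at 320 (214 to 459) and 507 (438 to 584), and Il1r1, the interleukin-1 receptor gene, at 44.1 (12.0 to 113) and 112 (80.4 to 151), with intervals that overlapped. Nearer to each other were the following. Cxcr6, a chemokine receptor of resident T cells, stood at 1422 and 1681 CPM, and Maf, a transcription factor of type 17 gamma-delta cells, at 606 and 706. Tmem176b stood at 1532 and 1322 CPM, Ramp1 at 772 and 682, Aqp3 at 121 and 128 and Il7r at 342 and 324. Trav1 and Trav11, the alpha segments of MAIT and invariant NKT cells, had no count in either, and Cd4 had 1 count in 1 of the 83 cells. For each of these segments, no count in the 14 Trdc-low cells allows up to 40.7 CPM, a limit on counts and not on cells with the chain. By Trdc, 14 members thus went against the gamma-delta part of the label, and the class is called the gated cells below. The shares by age, the receptor genes and the age values below are also given without them, and the other results include them.

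Variable genes marked some of the chains. Trgv6, the V gamma 6 segment, was found in 17 cells (4, 4 and 9 by age) and Trdv4 in 29 (10, 7 and 12), and 35 cells (42.2%) held either. Trgv4, the segment of the other large interleukin-17 branch, was found in 0 of the 83 cells, which allows a share of up to 4.35% (exact Clopper-Pearson interval), a limit on cells with a count and not on cells with the chain. Trgv6 summed to 42.3, 34.5 and 67.7 CPM in the gated cells. It had 2 counts in all 450 other Trdc-bearing T cells (described below), a ratio of pooled CPM of 83.1 (20.5 to 727). Trgv6 passed the filter on low counts there only through the gated cells, so this ratio is a description and no p-value is given. Trdv4 was at 74.1, 112 and 154 CPM in the gated cells and at 13.8, 10.2 and 4.84 in those T cells, a log2 difference of 3.11 ± 0.38 (SE). Both segments were higher in the gated cells than in each of 3 other T cell classes. Against Trdc T cells, Trdv4 too passed the filter only through the gated cells. So was Trgv2, by 1.28, 3.79 and 1.70 on the log2 scale against Trdc, CD4 and CD8 T cells. Trgv2 had a count in 18 of the 69 Trdc-bearing and 3 of the 14 Trdc-low cells. Trgc4 was also higher in all 3 comparisons, by 2.03, 5.37 and 3.94 on the log2 scale, but it shares sequence with the other gamma constant genes and its reads may be split among them.

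The gated cells were 0.229% of all cells in the 4-month library (exact Clopper-Pearson 95% interval 0.158 to 0.322), 0.136% (0.0834 to 0.211) in the 12-month library and 0.204% (0.138 to 0.292) in the 20-month library. Of T cells, they were 0.364%, 0.179% and 0.311%. The intervals of the 3 ages overlap, which is not a test of a difference, and none was made. With the 69 Trdc-bearing cells alone the shares of all cells were 0.160% (0.101 to 0.240), 0.109% (0.0624 to 0.177) and 0.204% (0.138 to 0.292), still overlapping, and 20 months in place of 4 months was the highest. With every cell thinned to 3000 counts the shares under the gate as given were 0.222%, 0.218% and 0.293%, so the order of the ages also moved with depth. Since a share counts cells, it says nothing of how many cells a tumour held.

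The limit on Cd8 moved these shares most. Cells that met every other condition but held 2 or more counts of Cd8a and Cd8b1 numbered 144 (21, 53 and 70 by age), more than the members themselves. Of these, 97 had at least 2 Trdc counts, 121 had Cd163l1, 38 had Il17a and 8 were among the highest Scrublet scores. The Cd8 sum was 2 to 4 in 78 of them, 5 to 9 in 17 and 10 or more in 49. With no Cd8 limit, a choice made after seeing the data, the shares in the same order were 0.375% (0.282 to 0.489), 0.498% (0.391 to 0.626) and 0.681% (0.554 to 0.828). The 4-month and 20-month intervals then no longer overlap, and the order of the ages differs from that under the limit.

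A Cd8 sum of 2 or more was found in 32.9%, 59.2% and 46.6% of NK-like cells and in 31.2%, 65.5% and 55.1% of macrophage-like cells at 4, 12 and 20 months. Cells that should lack Cd8 thus passed 2 counts often, and more often at 12 and 20 months than at 4. How far this background set the age order under either gate was not tested.

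**Figure D2:**
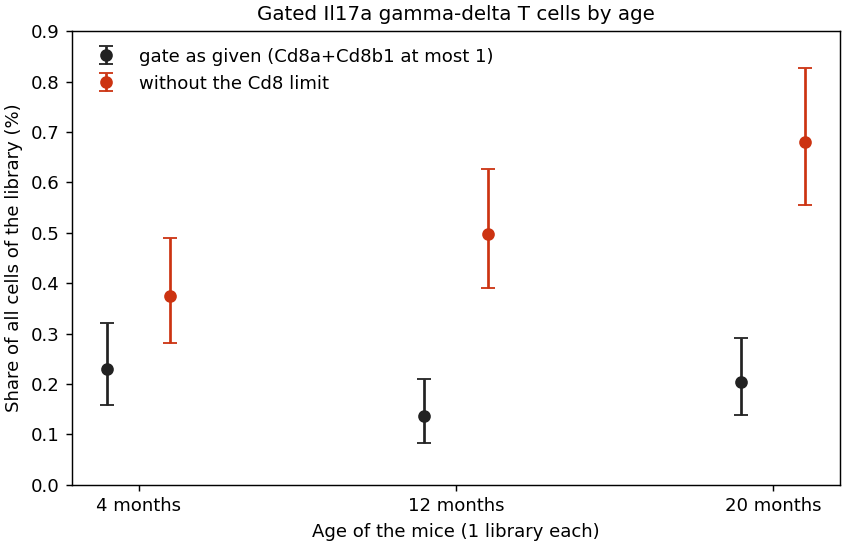
Share of all cells of each library, in percent, that met the gate as given and the gate without the Cd8 limit, with bars for the exact Clopper-Pearson 95% interval. Under the gate as given the 3 intervals overlap, whereas without the limit the share is 0.375% at 4 months and 0.681% at 20 months.

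Around the Cd8 threshold, 41 members had a sum of 0, 42 had a sum of 1, and 36 cells just outside had a sum of exactly 2. The 144 cells beyond it held 720 CPM of Cd163l1, 517 of Il17a, 1576 of Trdc, 187 of Blk and 268 of Actn2, beside 3279 of Ccl5 and 748 of Cd8b1. Of these genes, Cd163l1, Il17a, Trdc and Cd8b1 were read by the rule that set these cells apart. Ccl5 was unevenly spread, with 3616 counts over the 144 cells and a median of 6 per cell. At the type 17 threshold, 11 members had a sum of exactly 2. The 51 cells just outside, with a sum of 1 and all other conditions met, held 147 CPM of Trdc, 12.1 of Blk, 113 of Actn2 and 369 of Cxcr6, beside 4302 of Lyz2 and 2345 of Gzma. These last sums were uneven over cells, since the median count per cell was 5 for Lyz2 and 1 for Gzma.

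For comparison, 3 other T cell classes were cut from the same libraries, all without counts of Cd163l1, Il17a, Il23r and Foxp3 and with fewer than 10 C1q counts. Trdc T cells held at least 2 Trdc counts and at most 1 Cd8 count and numbered 450 (243, 144 and 63 by age). Conventional CD4 T cells held Cd4 and no Trdc, Trgc1 or Trgc2, with at most 1 Cd8 count, and numbered 383 (171, 124 and 88). CD8 T cells held at least 2 Cd8 counts and numbered 20260 (5341, 7954 and 6965). Counts were summed per class and library and compared by edgeR's quasi-likelihood test with the library as a term, called at an adjusted p under 0.05 (Benjamini-Hochberg). Log2 differences below are the gated cells over the other class, ± SE, and the genes of the gates are left out of every count. A gene of few counts in both classes was filtered out before the test. A gene near 0 in 1 class was thus tested only where it was higher in the other.

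Against Trdc T cells, 425 of 4303 genes tested were higher in the gated cells (9.88% of genes) and 500 were lower (11.6%). Against CD4 T cells, 307 of 5291 were higher (5.8%) and 479 lower (9.05%). Without the 4-month library these fell to 179 and 292. Against CD8 T cells, 346 of 18284 were higher (1.89%) and 1020 lower (5.58%). Left out in turn, the libraries gave 214 to 269 higher and 551 to 679 lower there, the fewest higher without 20 months and the fewest lower without 12 months. The median log2 difference of all genes was 0.03, 0.01 and −0.35 in the 3 comparisons. With RLE scaling in place of TMM, the CD8 median was −0.17 and the split was 458 higher and 583 lower. Higher calls were then 44.0% of all calls in place of 25.3%, and DESeq2 gave 54.5%. The CD8 median was −0.06 over 11189 genes with DESeq2 and −1.97 with no filter on low counts. It moved with the method and the genes tested and is not a fixed offset, so small negative values against CD8 T cells are uncertain.

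Genes known in type 17 gamma-delta T cells were higher together. Of 26 listed outside the gate, 20 of 20 tested were higher than in Trdc T cells (median log2 difference 5.02), 20 of 21 than in CD4 T cells (3.20) and 24 of 25 than in CD8 T cells (4.26), none lower. The exception in the latter 2 was Cd44, at 0.12 and 0.30. Against Trdc and CD4 T cells, Blk, Actn2 and other listed genes near 0 there passed the filter on low counts only through the gated cells. These counts were therefore partly fixed in advance. The list was also drawn up with earlier results of these cells known, the gate selects for the type 17 state, and the 3 comparisons share the gated cells. The counts are a description of the class and not independent support for its name.

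Blk (chr14:63372836-63417037, minus strand) was among the largest differences. The gated cells held 254, 397 and 363 CPM at 4, 12 and 20 months, Trdc T cells 1.59, 0 and 2.42, CD4 T cells 0, 1.20 and 0, and CD8 T cells 0.627, 1.41 and 1.96. No library of any other class came near the lowest of the gated cells. The log2 difference from Trdc T cells was 7.73 ± 0.39 and from CD8 T cells 7.78 ± 0.43. CD4 T cells had 1 count, a ratio of pooled CPM of 781 with a counting interval of 138 to 31066.

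Actn2 (chr13:12269426-12340760, minus strand) followed, at 434, 483 and 505 CPM in the gated cells. Trdc T cells held 1.06, 3.72 and 4.84, CD4 T cells 7.93, 4.79 and 3.69, and CD8 T cells 11.9, 11.6 and 9.31. Its level varied little over the libraries of the gated cells and stood 7.37 ± 0.29, 6.25 ± 0.28 and 5.16 ± 0.19 above the other classes on the log2 scale.

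Among the transcription factors of the branch, Maf stood at 609, 544 and 880 CPM and was higher by 3.38 ± 0.17, 1.01 ± 0.17 and 3.13 ± 0.14. The difference of Maf was the smallest against CD4 T cells, which held 370, 322 and 295 CPM.

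Sox13, which acts early in V gamma 4 cells, stood at 26.5, 8.63 and 61.5 CPM from 14 cells. It passed the filter on low counts only against CD8 T cells, with 6.31 ± 0.91. Zbtb16, which encodes PLZF, a factor of innate-like T cells, stood at 68.8, 60.4 and 61.5 CPM and was higher than in Trdc T cells by 5.12 ± 0.58 and than in CD8 T cells by 3.73 ± 0.56. CD4 T cells had 3 counts of it, a ratio of 51.1 (15.9 to 262). Rora, a nuclear receptor gene, was higher by 3.40, 0.96 and 2.26.

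Cytokine receptor genes differed in both directions. Il1r1, the signalling receptor for interleukin-1, stood at 90.0, 77.7 and 123 CPM. Trdc T cells had 3 counts of it, a ratio of 111 (35.6 to 557), and the log2 difference was 4.78 ± 0.62 from CD4 T cells and 6.30 ± 0.75 from CD8 T cells. Il7r, the receptor chain for the survival factor interleukin-7, was higher by 2.73, 1.70 and 1.87, and Il18r1 by 1.26, 1.67 and 1.23. Tnfrsf25, the receptor of the cytokine TL1A, stood at 90.0, 86.3 and 111 CPM and was higher by 4.99 ± 0.48, 2.49 ± 0.39 and 5.14 ± 0.59. Il17re, a receptor chain for interleukin-17C, stood at 101, 25.9 and 36.9 CPM and was tested only against CD8 T cells, where it was higher by 5.63 ± 0.85. Il2ra, the high-affinity chain for interleukin-2, was higher than in Trdc and CD8 T cells, by 2.55 and 1.99, and at 0.17 ± 0.24 did not pass against CD4 T cells. Il21r, the interleukin-21 receptor, was lower in all 3, at −1.42, −1.85 and −1.95. Il6ra, a chain for interleukin-6, was lower than in CD4 and CD8 T cells, with 3 counts and ratios of 0.153 (0.0311 to 0.461) and 0.237 (0.0488 to 0.692), and Il18rap, the partner of Il18r1, was lower than in Trdc T cells at −1.0 ± 0.32. Over 32 listed cytokine receptors, 7 were higher and 4 lower of 19 tested against Trdc T cells, 5 and 5 of 24 against CD4 T cells, and 8 and 7 of 31 against CD8 T cells.

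Further genes of the list have other roles. Serpinb1a, a protease inhibitor, stood at 487, 354 and 665 CPM and was higher by 6.32 ± 0.28, 4.51 ± 0.22 and 4.80 ± 0.18. Aqp3, a channel for water and glycerol, stood at 122, 129 and 129 CPM and was higher by 6.12, 5.54 and 5.09. Ltb4r1, the receptor for the lipid attractant leukotriene B4, was higher by 5.98, 3.20 and 3.92. Ramp1, a part of the receptor for the nerve peptide CGRP, stood at 672, 785 and 671 CPM and was higher by 4.36, 2.85 and 4.26. Tmem176a and Tmem176b, which encode related membrane channels, were higher by 5.15, 4.70 and 4.58 and by 4.93, 4.14 and 3.97. These 2 genes overlap on opposite strands and whether counting used strand is not stated, so their counts may not be independent.

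**Figure D3:**
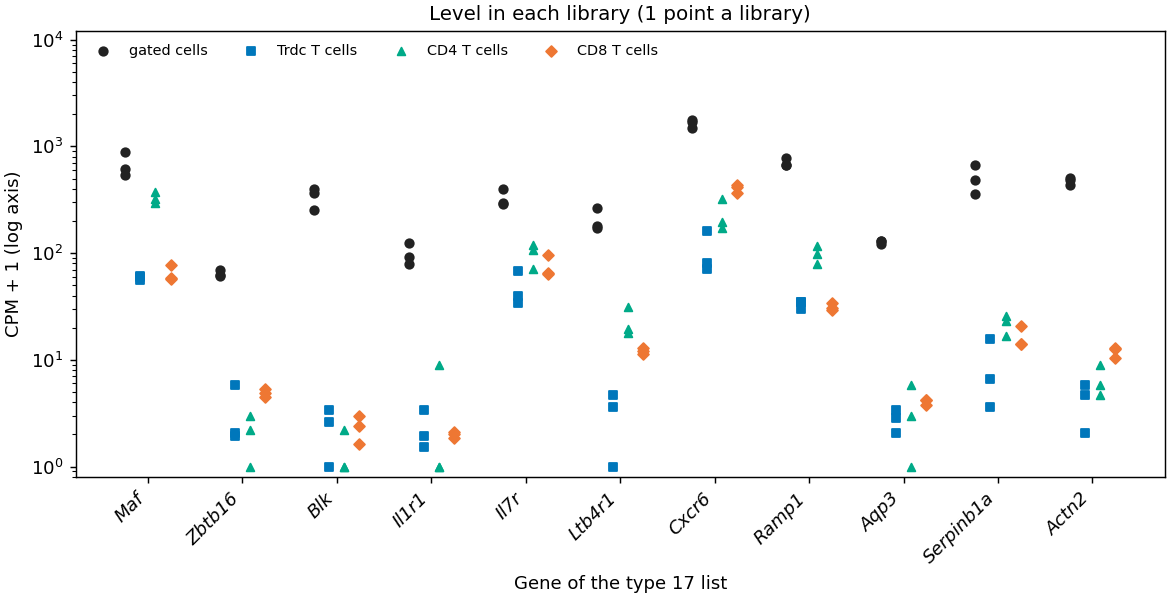
CPM + 1 on a log axis of 11 type 17 genes in the gated cells, Trdc T cells, CD4 T cells and CD8 T cells, each point being the sum over 1 class in 1 library. Blk, at 254 to 397 CPM in the gated cells, is at most 2.42 CPM in any library of the other classes, whereas Maf in CD4 T cells, at 295 to 370 CPM, comes nearer to the 544 to 880 CPM of the gated cells.

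The promoters of these genes were searched for the letters AGGTCA, a core motif that many nuclear receptors recognise, on both strands of the RefSeq windows from 250 bases before to 50 bases after the start (GRCm38.p6). The motif was present in 7 of the 23 genes of the list and the gate that had a window and in 4900 of all 27025 genes with a window (18.1%), or 16.3% of all 32851 windows. The longer TAGGTCA, which contains it, was present in 4 of the 23, in 2.97% of all genes with a window and in 2.61% of all windows. A match is a description of the letters and not a site of binding. Windows of 4 genes are shown, picked for holding the motif: those of Il17a and Il23r of the gate and of Actn2 and Ccr6 of the list. Cd163l1, the gate gene found in the most members, had a window without it. They read 5′ to 3′ on the gene's strand, with the motif in capitals, written TGACCT where it lies on the other strand.
Il17a, chr1:20730655-20730954, plus strand, 1 match starting at −120: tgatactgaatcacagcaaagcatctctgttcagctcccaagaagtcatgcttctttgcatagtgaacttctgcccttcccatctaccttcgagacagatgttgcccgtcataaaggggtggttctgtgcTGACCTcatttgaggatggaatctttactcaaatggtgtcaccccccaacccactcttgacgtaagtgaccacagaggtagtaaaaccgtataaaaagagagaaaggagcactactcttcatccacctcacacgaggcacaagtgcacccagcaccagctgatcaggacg
Il23r, chr6:67491806-67492105, minus strand, 2 matches starting at −229 and −66: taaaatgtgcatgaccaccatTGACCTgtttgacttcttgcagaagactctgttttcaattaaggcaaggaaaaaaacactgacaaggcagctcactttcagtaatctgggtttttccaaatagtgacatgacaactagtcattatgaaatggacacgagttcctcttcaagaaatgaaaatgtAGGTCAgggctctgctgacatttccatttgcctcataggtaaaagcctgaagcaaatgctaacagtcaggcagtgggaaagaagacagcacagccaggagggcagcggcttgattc
Actn2, chr13:12340683-12340982, minus strand, 1 match starting at −170: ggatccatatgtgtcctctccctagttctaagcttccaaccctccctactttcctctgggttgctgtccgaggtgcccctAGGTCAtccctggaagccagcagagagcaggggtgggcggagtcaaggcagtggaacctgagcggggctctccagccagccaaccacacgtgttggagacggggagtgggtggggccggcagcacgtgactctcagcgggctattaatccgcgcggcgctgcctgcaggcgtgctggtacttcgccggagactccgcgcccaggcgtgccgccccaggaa
Ccr6, chr17:8235793-8236092, plus strand, 1 match starting at −44: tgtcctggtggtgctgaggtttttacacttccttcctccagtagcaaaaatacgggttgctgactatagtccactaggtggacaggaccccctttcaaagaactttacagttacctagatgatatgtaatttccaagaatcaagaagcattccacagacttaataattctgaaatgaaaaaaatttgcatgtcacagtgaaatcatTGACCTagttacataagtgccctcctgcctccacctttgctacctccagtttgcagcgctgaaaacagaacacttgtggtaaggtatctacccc
Il23r, Actn2 and Ccr6 held the longer form and Il17a only the shorter one. Maf, Blk, Serpinb1a, Podnl1 and Zbtb16 were not in the table of windows.

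Receptors that place cells in tissue differed in both directions. Cxcr6 was found in 82 of the 83 cells, against 22.5% to 38.3% of NK-like and 29.8% to 53.4% of macrophage-like cells. It stood at 1477, 1708 and 1754 CPM and was higher by 3.94 ± 0.17, 2.86 ± 0.15 and 1.73 ± 0.11 than in Trdc, CD4 and CD8 T cells. Itgae and Itgb7, the chains of the epithelial integrin CD103, were higher in all 3 comparisons, Itgae by 2.92, 1.69 and 2.47 and Itgb7 by 1.97, 1.47 and 1.5. Ccr6 stood at 42.3, 60.4 and 30.8 CPM, higher by 2.44 ± 0.54 than in CD4 and 4.58 ± 0.78 than in CD8 T cells, and did not pass the filter against Trdc T cells.

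Other homing genes were lower. Ccr7, the lymph node homing receptor, stood at 26.5, 8.63 and 0 CPM, lower than in the other classes with log2 differences of −2.54 ± 0.53, −2.28 ± 0.53 and −3.24 ± 0.39. Itga4, the integrin chain for VCAM-1, was at −2.36, −2.94 and −2.84, and Cxcr3, a receptor for interferon-induced chemokines, at −1.60, −1.89 and −1.99. Ccr2, a receptor for inflammatory chemokines, was higher, by 0.54, 0.76 and 0.65, and Selplg, a selectin ligand gene, was higher by 0.78 than in CD4 T cells and did not pass in the other comparisons, at 0.19 and 0.25. Of 30 listed homing and residence genes, 5 were higher and 6 lower of 19 tested against Trdc T cells, 7 and 8 of 22 against CD4 T cells, and 5 and 8 of 29 against CD8 T cells.

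Ifng, the interferon gamma gene of type 1 cells, was lower. It stood at 31.8, 17.3 and 18.5 CPM in the gated cells and at 161, 155 and 102 in Trdc T cells. The log2 difference was −2.65 ± 0.33 from these (edgeR adjusted p = 3.05e-06), −2.54 ± 0.36 from CD4 T cells and −3.39 ± 0.29 from CD8 T cells. Tbx21, which encodes the type 1 factor T-bet, was at −2.31 and −2.29 against Trdc and CD8 T cells, and Eomes, its relative, at −2.98 and −2.10. Neither passed the filter on low counts against CD4 T cells. Il12rb1, a chain shared by the receptors for interleukin-12 and interleukin-23, was higher in all 3 comparisons, by 1.05, 1.5 and 1.23. Hopx, a factor of effector T cells, was lower in all 3, at −2.46, −2.49 and −2.76.

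Granule genes of killer cells were lower as a group, in 6 of 9 tested against Trdc T cells, 6 of 9 against CD4 T cells and 9 of 13 against CD8 T cells. Gzma stood at 233, 173 and 43.1 CPM, with log2 differences of −4.03 ± 0.18, −1.5 ± 0.26 and −2.47 ± 0.16. Gzmb stood at 916, 742 and 523 CPM, against 3855, 2994 and 2486 in Trdc T cells, and was at −2.20, −1.63 and −2.24. Nkg7, a granule membrane protein, was at −2.52, −1.16 and −2.49. Against CD8 T cells 2 genes were called higher, Gzmc at 0.53 and Gzmd at 1.46, each higher in only 1 of the 3 libraries. Of the 366 Gzmc counts at 4 months, 361 lay in 1 cell, and these near-identical granzymes can share reads.

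All 16 NK receptor genes tested were lower than in Trdc T cells (median log2 difference −3.07), 9 of 15 were lower than in CD4 T cells and 15 of 17 than in CD8 T cells. Ncr1 stood at 47.6, 43.1 and 24.6 CPM, against 528, 489 and 520 in Trdc T cells, and was at −3.83 ± 0.23, −1.58 ± 0.32 and −2.06 ± 0.28. The Ly49 genes Klra9, Klra4 and Klra8 were at −5.04, −4.71 and −4.11 against Trdc T cells. They belong to a family of near-identical genes among which reads can be split. Summed NK markers were 725, 388 and 197 CPM in the gated cells, against 5394 to 6802 in Trdc T cells, 1064 to 1229 in CD4 T cells and 1176 to 2108 in CD8 T cells. Summed NK receptor genes were 11404.5, 10048.8 and 11491.9 CPM by age in Trdc T cells. In NK-like cells, chosen on Ncr1 of the same list, they were 11520.3, 11449.4 and 10594.9. The Trdc T cells were thus rich in NK genes, near the level of NK-like cells for these receptors, and their differences from the gated cells hold that contrast too.

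Chemokines were lower in 5 of 5 tested, 5 of 6 and 6 of 8. Ccl5 stood at 275, 673 and 837 CPM, with log2 differences of −2.13 ± 0.22, −1.29 ± 0.15 and −3.10 ± 0.11, and Xcl1, which attracts cross-presenting dendritic cells, stood at 349, 164 and 135, with −3.37, −1.86 and −2.03. Cytokine genes went both ways, with 5 higher and 3 lower of 9, 2 and 5 of 15, and 5 and 3 of 19. Lta, which encodes lymphotoxin alpha, stood at 127, 43.1 and 154 CPM and was higher by 3.45 ± 0.43, 1.85 ± 0.47 and 2.91 ± 0.36. Tnfsf14, which encodes LIGHT, was higher by 1.61, 1.96 and 1.75. Csf2, which encodes GM-CSF, stood at 63.5, 86.3 and 73.9 CPM, higher than in Trdc and CD8 T cells by 3.40 and 3.0. CD4 T cells held 42.6, 108 and 7.37 CPM of Csf2, and the difference of 0.69 ± 0.43 there did not pass (edgeR adjusted p = 0.35).

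T cell receptor signalling genes were also divided, 5 higher and 6 lower of 18, 4 and 11 of 21, and 4 and 13 of 23. The adaptor Lat was even over the libraries, at 752, 751 and 745 CPM, and higher by 2.34 ± 0.16, 1.07 ± 0.14 and 0.83 ± 0.12. Cd247, the zeta chain, was higher by 1.61, 1.06 and 1.32, and the kinase gene Zap70 by 0.82, 0.83 and 0.70. Lck, the kinase that acts upstream of Zap70, was lower, at −1.53, −1.40 and −1.83. Ubash3a, a phosphatase-family inhibitor of receptor signalling, had 1 count in the gated cells, a ratio of pooled CPM of 0.0393 (0.000987 to 0.223) to CD4 T cells and of 0.0412 (0.00104 to 0.229) to CD8 T cells.

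Constant genes of the conventional receptor were not absent. Trac stood at 339, 544 and 197 CPM, higher than in Trdc T cells by 0.79 ± 0.17 and lower than in CD4 and CD8 T cells, at −1.98 ± 0.16 and −1.81 ± 0.13. In the 69 Trdc-bearing cells alone it was 192, 264 and 197 CPM, against 173, 258 and 147 in Trdc T cells. Trbc2 stood at 1233, 1191 and 751 CPM, with log2 differences of 0.53 ± 0.13, −0.09 ± 0.12 and −0.78 ± 0.10. Trbc1 did not pass against Trdc and CD4 T cells, at 0.08 and −0.37. It was called lower than in CD8 T cells at −0.37, a small difference beside the median of −0.35 of all genes in that comparison.

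Costimulatory and inhibitory receptors were mostly lower than in CD4 T cells (14 lower, 2 higher of 21) and CD8 T cells (14 and 1 of 24), and divided against Trdc T cells (6 and 4 of 18). Tnfrsf4, which encodes OX40, stood at 74.1, 77.7 and 36.9 CPM, against 1031, 947 and 499 in CD4 T cells, a log2 difference of −3.74 ± 0.20. Lag3, an inhibitory receptor, was at −2.78 and −3.33 against CD4 and CD8 T cells. Cd27, whose loss marks interleukin-17 gamma-delta cells, was at −1.82, −1.61 and −1.96, and Cd28 at −2.26, −2.54 and −2.40. Icos stood at 370, 302 and 252 CPM, higher than in Trdc and CD8 T cells by 2.22 ± 0.21 and 1.46 ± 0.17, and at −0.11 ± 0.16 did not pass against CD4 T cells. In the Trdc-bearing cells alone Icos was 201, 233 and 252 CPM.

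**Figure D4:**
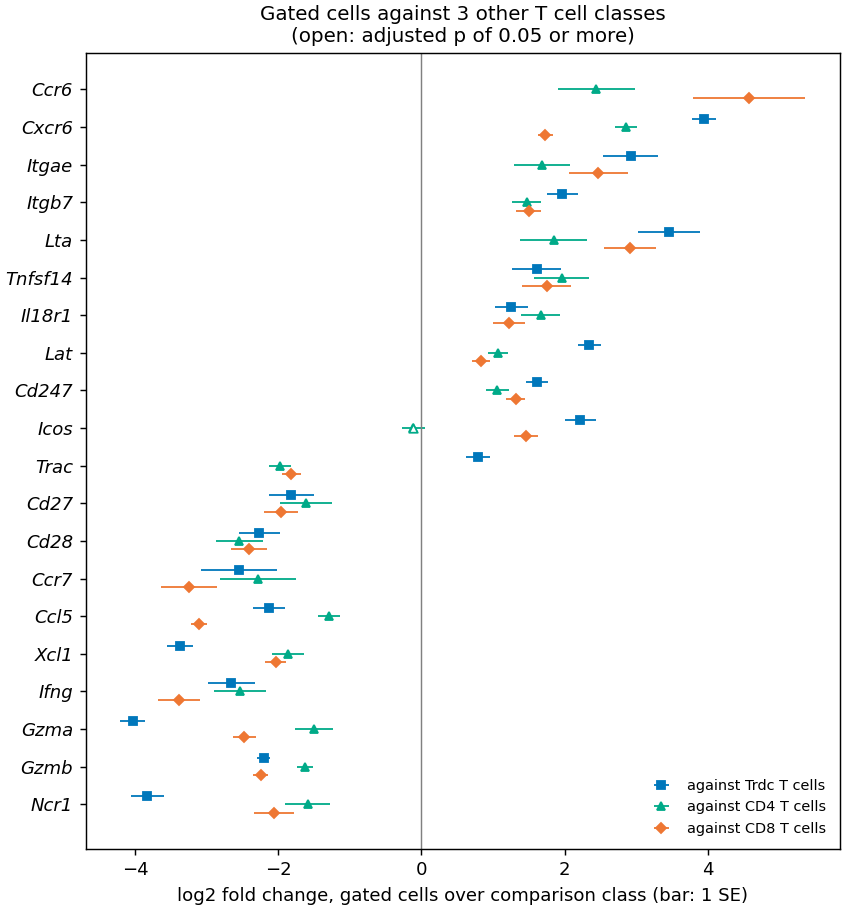
Log2 difference ± 1 SE of 20 homing, cytokine, signalling and killer cell genes between the gated cells and each of the 3 other T cell classes, from edgeR, with open symbols where the adjusted p was 0.05 or more. Cxcr6, Itgae, Lta and Lat lie above 0 in all 3 comparisons and Cd27, Ifng and Gzma below 0 in all 3, and the only open symbol is Icos against CD4 T cells, at −0.11.

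Outside the lists, the same rule of size named further genes in each comparison. Kcnk1, a potassium channel gene, stood at 68.8, 60.4 and 61.5 CPM in the gated cells and had no count in Trdc T cells. Against a floor of 3 counts over that class it was at least 72.3-fold higher. Slc6a13, a transporter gene, stood at 37.0, 104 and 80.0 CPM and was likewise at least 77.1-fold higher. Ppp1r14c, a phosphatase inhibitor gene, stood at 58.2, 112 and 61.5 CPM, with 1 count in Trdc T cells, a ratio of 246 (41.2 to 9988), and 5.38 ± 0.71 against CD8 T cells. Adam12, a surface metalloprotease gene, stood at 79.4, 77.7 and 111 CPM and was higher by 5.51 ± 0.61 than in CD4 and 5.24 ± 0.64 than in CD8 T cells. Ly6g5b was higher than in Trdc T cells by 6.14 ± 0.39. These genes were higher in every library of the gated cells than in the same library of the other class. Against Trdc T cells, Kcnk1, Slc6a13 and Ppp1r14c passed the filter on low counts only through the gated cells.

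Lower than in CD4 T cells were Penk, which encodes the opioid precursor proenkephalin, at 5.29, 34.5 and 12.3 CPM against 256, 421 and 243 (−4.28 ± 0.33), and Izumo1r, which encodes folate receptor 4, with 2 counts and a ratio of 0.0338 (0.00408 to 0.123). Csf2rb, the shared chain of the GM-CSF receptor, had no count in the gated cells and was at least 9.27-fold lower than in CD4 T cells against the same floor of 3 counts over the class. Areg, which encodes amphiregulin, was at −3.63 ± 0.61 from 4 counts, all at 20 months, a call that DESeq2 did not make. Against CD8 T cells the globin genes Hbb-bs, Hba-a1 and Hba-a2 were lower, at −4.02, −3.85 and −3.76. Globin is the protein of red cells. CD8 T cells held 326 CPM of Hbb-bs at 4 months against 46.6 and 68.2 later, and what this adds to the difference was not tested. Without the library term none of the 3 globin genes was called, and without the 4-month library neither Hba-a1 nor Hba-a2 was. The 2 alpha globin genes are near-identical copies.

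The remaining lists were of states that many cells share. Glycolysis genes gave 3 higher and 0 lower of 14 against Trdc T cells, and 0 and 1 of 15 and 0 and 1 of 16 in the other comparisons. Plin2, which coats lipid droplets, stood at 84.7, 104 and 92.3 CPM and was higher than in Trdc T cells by 2.03 ± 0.36 and than in CD8 T cells by 0.80 ± 0.27. Interferon response genes were lower in 7 of 16 against CD4 and 8 of 16 against CD8 T cells, led by Ifi27l2a at −1.88 and −1.42, with 3 higher and 2 lower of 16 against Trdc T cells. Immediate early genes gave 3 higher and 2 lower of 17, 1 and 6 of 19, and 1 and 2 of 19. Cell cycle genes gave 1 higher of 11, 2 higher of 11 and 3 lower of 16, and Mki67 was found in 5 gated cells (3, 2 and 0 by age).

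Markers of other cell types were read in the same cells. The 12 macrophage and monocyte markers summed to 2678, 2243 and 2449 CPM in the gated cells, against 22877 to 25952 in macrophage-like cells, 3476 to 3864 in Trdc T cells and 6837 to 8263 in CD4 T cells. Of these markers, 2 of 9 tested were lower than in Trdc T cells, and 11 of 12 were lower than in CD4 T cells and in CD8 T cells. Lyz2 had a count in 81 of the 83 cells, with at most 10 in 1 cell, at 725, 535 and 622 CPM against 3629, 3343 and 4185 in macrophage-like cells. Their part in the lower calls against CD4 and CD8 T cells was not tested beyond a limit of at most 10 Lyz2 counts on every cell, chosen after seeing the data, which left 254 lower calls against CD4 T cells in place of 479. Summed MAIT and NKT markers were 101, 77.7 and 98.5 CPM, of which Zbtb16 was the only gene higher in any comparison. Among B cell markers, Cd79b was higher by 3.10, 1.96 and 2.23 and Ighm lower at −2.15, −2.52 and −1.75.

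By age, each value is the sum over 33, 20 or 30 cells of 1 library, and no test was possible. Among the 789 genes with at least 100 counts over the gated cells, 6 were higher (0.76%) and 8 lower (1.01%) by 2-fold or more of CPM + 10 at 12 months than at 4 months, and 5 were higher (0.634%) and 15 lower (1.9%) at 20 months. None of the 12 type 17 genes in this set passed 2-fold at either age. Their median log2 difference from 4 months was 0.09 at 12 months and 0.34 at 20 months, where the median of the 789 was 0.01 and −0.00. These 12 genes were thus within 2-fold of 4 months at both later ages in these sums. They include no gate gene and none of the listed type 17 genes of fewer counts. Il17a, a gate gene, was at 971 CPM at 4 months and 264 at 12 months in the Trdc-bearing cells alone, with up to 34 counts in 1 cell at 4 months.

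In 4 of the named falls much of the 4-month level lay in 1 cell. Gzmc went from 1937 CPM at 4 months to 69.0 and 36.9, and without its 1 cell of 19028 counts, the deepest member, its log2 difference between 20 and 4 months was 0.25 in place of −5.37. Spp1, which encodes osteopontin, went from 757 to 77.7 and 61.5, and 111 of its 143 counts at 4 months were in 1 cell. Xcl1 went from 349 to 164 and 135, with 42 of 66 counts in 1 cell, and Tyrobp, a signalling adaptor of NK and myeloid cells, from 561 to 328 and 215, with 44 of 106. Without the deepest member the log2 differences were −1.47 for Spp1, −0.06 for Xcl1 and −0.73 for Tyrobp, so that Spp1 still passed 2-fold and Xcl1 and Tyrobp did not.

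Genes induced by interferon were among the other falls. Tgtp1, an interferon-induced GTPase gene, went from 460 CPM to 406 and 166, and Igtp, of the same family, from 450 to 406 and 215. In the Trdc-bearing cells alone Tgtp1 was at 360, 349 and 166 CPM and Igtp at 477, 412 and 215, so the order held without the Trdc-low cells. Over the 10 interferon response genes of this set, 0 passed 2-fold at 12 months and 2 were lower at 20 months. Gzma went from 233 to 173 and 43.1 CPM, where other T cells went from 1004 to 741 and 432.

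Among rises, Ciapin1, an iron-sulphur cluster assembly gene, went from 79.4 CPM at 4 months to 492 and 499, with a count in 10, 10 and 12 cells and at most 4, 16 and 24 in 1 cell. Apoe, a lipid carrier gene of macrophages, went from 127 to 242 and 443, where other T cells went from 298 to 428 and 575. Ccl5 went from 275 to 673 and 837, with a maximum of 4, 17 and 48 counts in 1 cell, and other T cells went from 2873 to 3151 and 4032. Rgs1, which damps chemokine receptor signals and is high in resident T cells, went from 423 to 682 and 1052, where other T cells held 530, 571 and 471. In the Trdc-bearing cells alone these 4 genes kept their direction, though Rgs1 no longer passed 2-fold (log2 difference 0.77 in place of 1.29), with Ciapin1 at 100, 518 and 499 CPM, Apoe at 83.7, 243 and 443, Ccl5 at 276, 729 and 837, and Rgs1 at 611, 655 and 1052. The 12-month value of Rgs1 there was close to that at 4 months. Il17a in those cells was at 971, 264 and 462 CPM, a wider range over the ages than in all gated cells. Its 116, 25 and 75 counts there were uneven, with up to 34, 9 and 28 in 1 cell. Of all gated cells, 30.3%, 40% and 46.7% by age held an Il17a count, an order unlike that of the CPM.

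**Figure D5:**
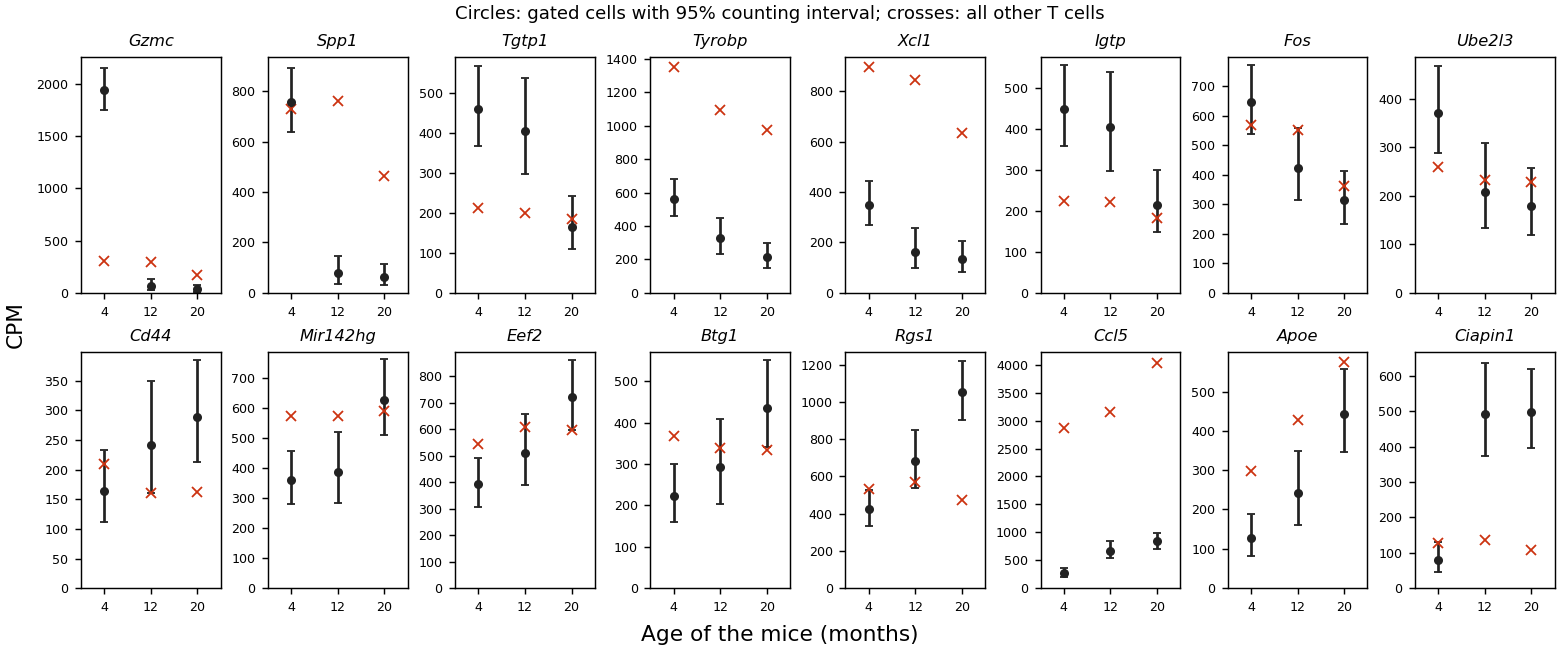
CPM by age, with exact Poisson 95% intervals, of the 16 genes with the largest rises and falls from 4 to 20 months in the gated cells, as circles, and in all other T cells, as crosses. Gzmc falls from 1937 to 36.9 CPM through 1 cell of the 4-month library, whereas Rgs1 rises from 423 to 1052 CPM, or from 611 CPM in the Trdc-bearing cells alone (not plotted), with other T cells at 471 to 571 CPM.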

How the data were processed

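Single-cell RNA sequencing counts of CD45+ cells were analysed, 1 library at each of 3 ages. The authors deposited, per library, a matrix of raw whole-number counts per gene and cell. The submitters' processing notes name STAR 2.7.10a and GRCm38. Cell calling, the annotation, strand use and whether molecules or reads were counted are not given in the sources used here. Of 55401 gene identifiers, 54349 were found in GENCODE M21, which gave positions, and 107 symbols occur more than once and were kept apart by identifier.

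Cells were gated on the deposited counts with no further filter. Doublets were scored with Scrublet (scanpy 1.11.5) and removed only in an alternative. Counts were summed per class and library and tested with edgeR 4.0.16 (R 4.3.3; TMM, filterByExpr, quasi-likelihood test, library as a term, Benjamini-Hochberg, threshold 0.05), after a check on simulated counts. DESeq2 1.42.0, other scalings, filters and gates, and each library left out were alternatives. Intervals are exact Clopper-Pearson or Poisson at 95%. Age values are CPM with a pseudocount of 10. The members, lists and comparisons were chosen with earlier results of these data known. The genes named are, per comparison, the 10 largest rises and falls called in the same direction in every library with at least 50 CPM in the higher class, the leading genes of each list, the genes defining the cell type, and the 8 largest rises and falls by age. A test between V gamma 6 and V gamma 4 cells needed 20 cells of each per library and was not run. Promoter windows are from RefSeq (GRCm38.p6). Lists of dendritic, neutrophil, mast, innate lymphoid and melanoma, keratinocyte and fibroblast markers gave at most 3 calls in any comparison. Values of some single genes are not reported here.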

Additional observations from a re-analysis of the deposited data

How the results depend on the processing

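Of 60 gene and comparison pairs named by size, all kept direction under every alternative that gave them a value, and all kept their call but for Areg with DESeq2, the 3 globin genes without the library term, and Hba-a1 and Hba-a2 without the 4-month library. The share of cells was 0.327%, 0.287% and 0.306% by age with a type 17 sum of 1 or more and 0.375%, 0.498% and 0.681% with no Cd8 limit. With every cell thinned to 3000 counts it was 0.222%, 0.218% and 0.293%, from 32, 32 and 43 cells. Against Trdc T cells the calls were 856 lower with no filter on low counts and 176 higher and 167 lower with DESeq2. With each library left out in turn they ranged from 331 to 359 higher and 376 to 442 lower. Against CD4 T cells they were 744 lower with no filter, 135 higher and 181 lower with DESeq2, 254 lower with at most 10 Lyz2 counts, 569 higher and 758 lower with no Cd8 limit, and 179 to 255 higher and 292 to 416 lower with a library left out. Against CD8 T cells they were 583 lower with RLE factors, 270 lower with DESeq2, 594 higher with no Cd8 limit, and 214 to 269 higher and 551 to 679 lower with a library left out. With members limited to 2 or more Trdc counts, they were 326 and 399, 279 and 418, and 280 and 893.

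For levels by age in members, genes past 2-fold at 12 months were 5 lower with the stricter gate, 17 higher and 20 lower with the looser gate, 18 higher with no Cd8 limit and 5 lower without the deepest member. At 20 months they were 7 lower with the stricter gate, 13 higher and 26 lower with the looser one, 3 higher and 5 lower after thinning, 8 lower with a pseudocount of 50 and 19 higher and 31 lower with no Cd8 limit. The log2 difference between 20 and 4 months reversed for Tyrobp (0.22) and Xcl1 (0.43) with the looser gate, for Gzmc (0.66) and Xcl1 (1.24) after thinning, and for Gzmc (0.25) without the deepest member. The cause was not tested, other than that the last setting removes 1 cell. A planned limit of no C1q and at most 1 Lyz2 count left 2 members and gave no values. No paired analysis was possible because each age had 1 library. With 20 to 33 members per library, genes of few counts could not be followed by age.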
